A study of Mus musculus with 4 samples.

Results

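The T cell genes described here are 37 genes of T cell identity and receptor signaling, from the CD3 chains and their kinases to the transcription factors of the lineage and named one by one. All probe sets that carry 1 of these symbols alone in the array annotation were taken, which gave 73 probe sets of 35 genes, of 45037 probe sets on the array and 18193 genes named by a single symbol. Lck, the kinase that starts receptor signaling, and Tcf7 were not analysed here. RNA came from GF C57BL/6 mice kept in isolators and from GF C57BL/6 mice colonized with 100000000 Lactobacillus NK318.1 for 2 weeks. From each group, cells of the Peyer's patch (PP) and intestinal epithelial cells (IECs) were each put on 1 Affymetrix array, so the 4 arrays are GF-PP, NK318.1-PP, GF-IEC and NK318.1-IEC. The last is titled NK318-IEC in the labels, which otherwise give it the same colonized group. The study describes the samples as pooled. General methods put mice at 4 weeks of age when they left the isolator for bacteria by mouth, without naming these arrays, and no sex is stated for the GF mice. With 1 array per group and tissue, no test and no replicate error could be had, and every difference below is the ratio of a pair of arrays.

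T cells recognize peptides on MHC molecules through an antigen receptor whose signal passes through the CD3 and zeta chains to the kinases LCK and ZAP70 and the adaptor LAT. In the Peyer's patch, CD4 T cells sit between and inside B cell follicles, where follicular helper cells drive IgA responses. The epithelium holds another population, the intraepithelial lymphocytes, most of which carry CD8 and lie between the enterocytes.

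The arrays carried markers of the tissues named in their labels, but the colonized and GF pools also differed in a sex-linked transcript and, in the IECs, in a gastric one. All 14 epithelial markers, such as Epcam and Vil1, had at least 2-fold higher intensity in GF-IEC than in GF-PP, and all 15 measured B cell markers at least 2-fold lower intensity. Median intensity was at most 23.3 on every array. Xist, transcribed from the inactive X chromosome, had an intensity of 21.7 in GF-PP, 4586 in NK318.1-PP, 46.7 in GF-IEC and 4889 in NK318.1-IEC, so sex and colonization cannot be told apart in either tissue. In the IECs, Gkn2, a gene of gastric mucosa, had 12.5 in GF and 9949 in colonized mice, and the 3′ to 5′ ratio of the β-actin control was 2.73 in GF and 4.10 in colonized mice, against at most 1.74 in the Peyer's patch. The part of these differences in the T cell values was not tested. Values under an intensity of 15.5 are called under the floor and were raised to it before a ratio was taken, so a ratio with 1 side under the floor is a bound, and a gene with both sides under it has none. Unless a fold is named, a ratio below is the log2 of colonized over GF.

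Nearly all T cell genes were above the floor in the Peyer's patch, and most had a lower signal in the epithelial cells. In both Peyer's patch arrays 34 of 35 genes lay above it, 97.1%, against 68.4% of all genes in GF-PP and 68.5% in NK318.1-PP. GF-IEC had 27 of them above it, 77.1% against 73.7% of all genes, and NK318.1-IEC 21 of 35, against 73.6% of all genes. Of 34 genes measured in the GF pair, 31 were at least 2-fold lower in the IECs than in the Peyer's patch and 0 at least 2-fold higher, against 18.5% and 16.0% of 14036 genes. Below 0 on the log2 scale lay 33 and above it 1, against 48.1% and 51.8% of all measured genes. For the colonized pair, 30 of 35 were at least 2-fold lower in the IECs and 0 at least 2-fold higher, against 16.8% and 18.4% of 14030 genes, with 34 below 0 and 1 above it, against 44.2% and 55.8%. Il7r, the receptor for the survival cytokine IL-7, showed a 52.1-fold lower intensity in GF-IEC (27.5) than in GF-PP (1435). Satb1, a chromatin organizer, was at least 56.9-fold lower and Cd2, an adhesion receptor, 49.9-fold. Cd4, the MHC class II coreceptor, was 1.68-fold lower in the IECs in the GF pair and 2.26-fold lower in the colonized pair. Tox, a nuclear factor of T cell development, was 1.33-fold and 1.87-fold lower. Maf, which also serves cells outside the T lineage, was higher in the IECs in the GF pair, with 1209 in GF-IEC and 611 in GF-PP, and lower in the colonized pair, with 453 in NK318.1-IEC and 607 in NK318.1-PP. With bulk RNA, fewer T cells and less RNA per T cell cannot be told apart.

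**Figure D1:**
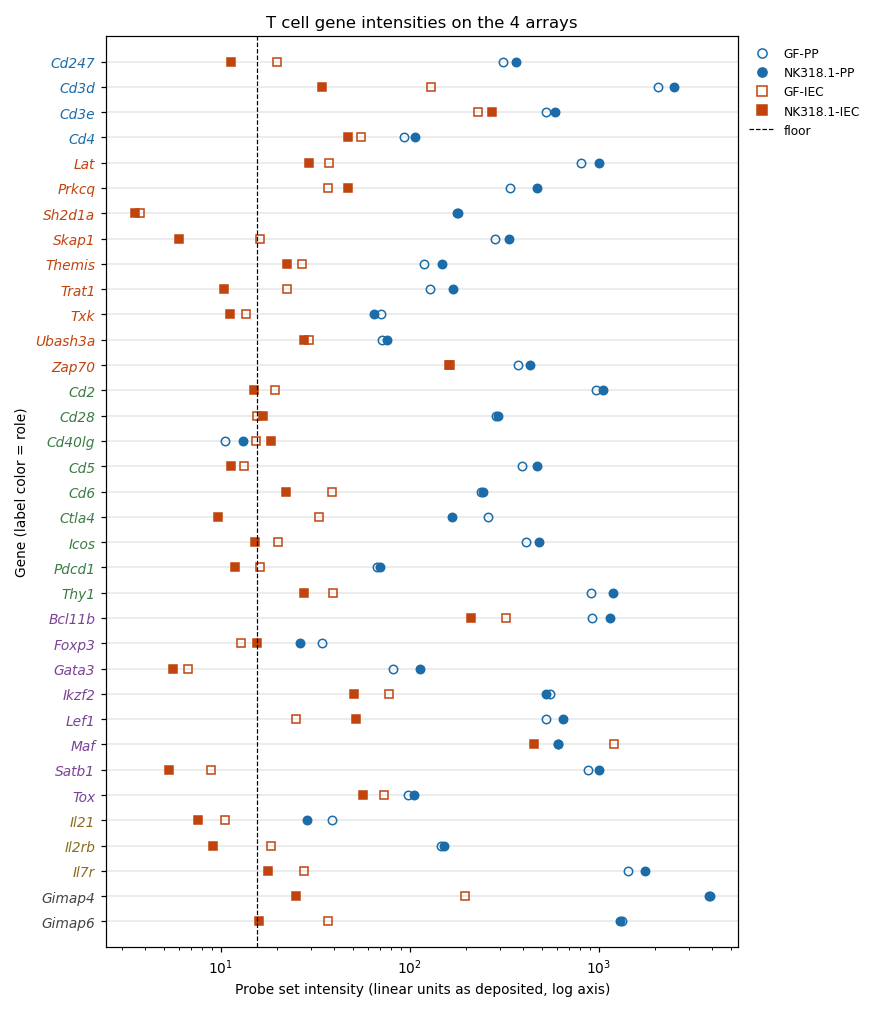
Intensity of the probe set that stands for each of 35 T cell genes on the 4 arrays (log axis; circles, Peyer's patch; squares, IECs; open, GF; filled, NK318.1; dashed line, floor of 15.5). In the Peyer's patch 34 genes lie right of the floor on both arrays, and Maf and Cd40lg are the genes whose GF-IEC square lies right of both their circles.

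In the Peyer's patch, most T cell genes had a slightly higher signal with NK318.1 than without it, and Ctla4, Il21 and Foxp3 had the lowest ratios. Of 34 measured genes, 0 differed 2-fold in either direction, where 0.149% of 12736 genes were at least 2-fold higher and 0.573% at least 2-fold lower. A log2 ratio above 0 was found for 27 of the 34, and below 0 for 7, against 42.5% and 57.2% of all measured genes. Their median was 0.17, and that of all measured genes was −0.03. For scale, 5484 genes had at least 2 probe sets above the floor on both Peyer's patch arrays. Over these genes, the ratios of the leading pair differed by a median of 0.15 on the log2 scale. For the 18 T cell genes among them that median was 0.23, above the T cell median ratio of 0.17.

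**Figure D2:**
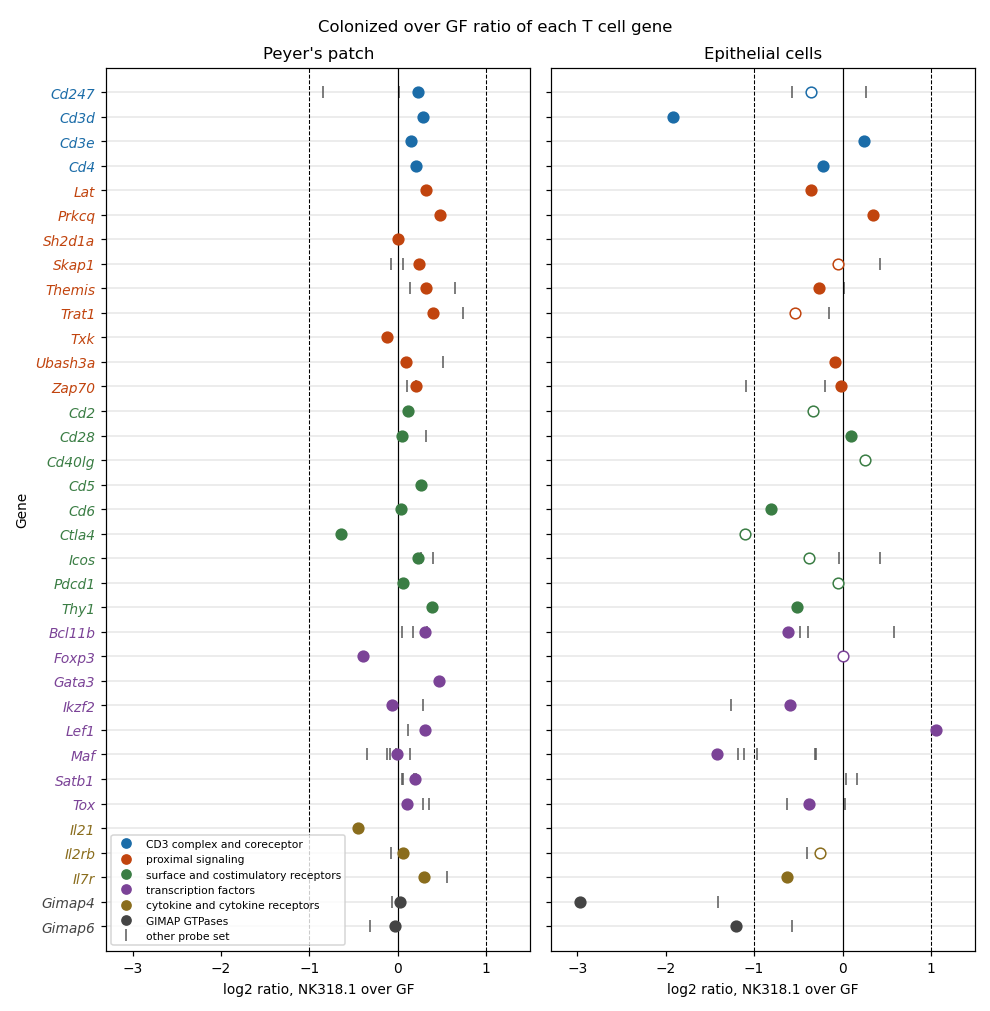
Log2 ratio of colonized over GF for each T cell gene in the Peyer's patch and the IECs (circles, probe set that stands for the gene; open circles, 1 side under the floor; ticks, other probe sets; dashed lines, 2-fold). In the Peyer's patch all circles lie between the 2-fold lines and 27 lie above 0, while in the IECs 5 lie at or beyond the lower line and 1 beyond the upper.

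The CD3 chains and CD4 all had ratios above 0 in the Peyer's patch, from 0.15 to 0.28, with a median of 0.22. Cd3d, which pairs with CD3ε in the receptor complex, had an intensity of 2056 in GF-PP, 2495 in NK318.1-PP, 129 in GF-IEC and 34.2 in NK318.1-IEC. The Peyer's patch values thus lay close together and the epithelial values far apart, with log2 ratios of 0.28 and −1.92. Cd3e, its partner and neighbor on chromosome 9, had 527, 585, 230.4 and 273 in the same order, and its epithelial ratio was 0.24. Cd3d was therefore 3.77-fold lower in the colonized epithelial array while Cd3e was not lower. From the Peyer's patch to the IECs, Cd3e was 2.29-fold lower in the GF pair and 2.15-fold lower in the colonized pair. For Cd3d these were 15.9-fold and 72.9-fold. Whether the Cd3e signal in the IECs came from T cells was not tested. Cd3g, the other partner of CD3ε and no member, had 190.3 in GF-IEC and under the floor in NK318.1-IEC, at least 12.3-fold lower. Cd247, the zeta chain, had a ratio of 0.23 in the Peyer's patch, while its other measured probe sets gave 0.01 and −0.84. Cd4 had 93.1, 107, 55.5 and 47.5 on the 4 arrays, with ratios of 0.21 and −0.22.

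Motifs were marked in the windows before the starts of genes whose epithelial ratios set them apart. Of the members at least 2-fold lower, Cd3d, Gimap4, Gimap6 and Ctla4 were taken and Maf was not. Lef1 was at least 2-fold higher, and Cd3e was the CD3 neighbor that was not lower. The bases are shown for the 4 genes taken whose windows held a match to a motif below. They were read from RefSeq for GRCm38.p6, written 5′ to 3′ on the strand of the gene and cut where any annotated transcript of the gene begins. Capitals mark matches on either strand to 4 short motifs. The ETS motif was searched as AGGAAG. That of RUNX factors was searched as TGTGGT. For GATA factors the letters were AGATAA. For TCF and LEF factors they were CTTTGA.
Cd3d (chr9:44981536-44981768, plus strand): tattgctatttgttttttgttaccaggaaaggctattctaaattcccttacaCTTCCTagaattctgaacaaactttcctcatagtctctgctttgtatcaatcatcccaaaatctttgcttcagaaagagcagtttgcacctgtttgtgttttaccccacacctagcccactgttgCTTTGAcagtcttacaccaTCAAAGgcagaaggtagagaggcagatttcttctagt
Cd3e (chr9:45009664-45009861, minus strand): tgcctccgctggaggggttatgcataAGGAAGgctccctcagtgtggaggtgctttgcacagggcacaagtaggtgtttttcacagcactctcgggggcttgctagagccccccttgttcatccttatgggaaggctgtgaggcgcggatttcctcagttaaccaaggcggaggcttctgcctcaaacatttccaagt
Gimap4 (chr6:48684328-48684577, plus strand): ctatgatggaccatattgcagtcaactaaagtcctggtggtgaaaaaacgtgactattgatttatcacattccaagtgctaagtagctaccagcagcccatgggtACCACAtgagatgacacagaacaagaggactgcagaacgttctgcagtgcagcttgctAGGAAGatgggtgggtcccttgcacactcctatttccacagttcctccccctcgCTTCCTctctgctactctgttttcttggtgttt
Ctla4 (chr1:60908775-60909024, plus strand): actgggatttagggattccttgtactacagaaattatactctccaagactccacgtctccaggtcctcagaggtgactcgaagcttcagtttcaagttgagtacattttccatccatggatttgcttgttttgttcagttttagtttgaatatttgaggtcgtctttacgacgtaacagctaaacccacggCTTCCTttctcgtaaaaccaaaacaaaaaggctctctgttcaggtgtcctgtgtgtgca
Each of the 4 stretches holds the ETS letters, and the Cd3d stretch also holds the TCF/LEF letters at 2 places. The windows of Gimap6 and of the first start listed for Lef1, also searched, held none of the 4 motifs. In windows of 250 bases before a start, the first one listed for each gene, the ETS letters were found for 13 of 24 T cell genes with a listed window, 54.2%, and for 29.2% of 27025 genes. The TCF/LEF letters were found in 20.8% and 14.1%, the RUNX letters in 12.5% and 14.2%, and the GATA letters in 0 of the 24 and 10.3% of all. A match is a stretch of letters and not a bound site.

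Among the signaling genes, 8 of 9 measured had a ratio above 0 in the Peyer's patch, against 42.5% of all measured genes. Their median was 0.24. Prkcq, the protein kinase C that links the receptor to NF-κB, had an intensity of 339 in GF-PP and 473 in NK318.1-PP, and 37.1 and 47.0 in the epithelial pair. Its Peyer's patch ratio of 0.48 was the highest of the members, and its epithelial ratio of 0.34 also lay above 0. Trat1, an adaptor that stabilizes the receptor at the surface, had 129 and 169 in the Peyer's patch, a ratio of 0.40, with 0.74 from its other probe set. In the IECs it had 22.4 in GF and 10.4, under the floor, in the colonized array, a ratio of −0.53 or lower. Lat, the adaptor on which the signal branches, had 806, 1001, 37.5 and 29.4, with ratios of 0.31 and −0.35. Zap70, the kinase that binds the phosphorylated CD3 chains, had ratios of 0.11 to 0.21 in the Peyer's patch over 3 probe sets. In the IECs its probe sets disagreed, since the brightest gave −0.02 and another −1.09 or lower. Themis, Skap1 and Ubash3a had 0.32, 0.24 and 0.09 in the Peyer's patch. Their other measured probe sets gave 0.65 and 0.13 or more for Themis, 0.06 and −0.08 for Skap1, and 0.51 for Ubash3a. Txk, a TEC family kinase, had 70.6 and 64.7, a ratio of −0.13 and the lowest of the signaling genes there, with 13.6 and 11.2 in the IECs, and Sh2d1a, the adaptor SAP, had 179.0 and 179.5.

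The surface and costimulatory receptors split into a larger group with ratios above 0 in the Peyer's patch and Ctla4. Thy1, a surface glycoprotein of mouse T cells, had an intensity of 911 in GF-PP and 1192 in NK318.1-PP, a ratio of 0.39. In the IECs it had 39.5 and 27.7, a ratio of −0.51. Icos, a costimulator of follicular helper cells, had 0.23 to 0.39 over 3 probe sets in the Peyer's patch. Cd5, Cd2, Cd28, Cd6 and Pdcd1 had 0.26, 0.11, 0.05, 0.03 and 0.05, and the other probe set of Cd28 gave 0.32. Cd2 had 974 in GF-PP and 1054 in NK318.1-PP, and 19.5 in GF-IEC with 15.1, under the floor, in NK318.1-IEC. Ctla4, the inhibitory receptor of regulatory and activated T cells, had 260.0 and 167 in the Peyer's patch, 33.4 in GF-IEC and 9.71 in NK318.1-IEC. It was lower in the colonized array of both tissues, with a ratio of −0.64 in the Peyer's patch and at least 2.15-fold in the IECs. Cd40lg, the helper signal to B cells, had 10.6 in GF-PP, 13.1 in NK318.1-PP and 15.4 in GF-IEC, all under the floor, and 18.5 in NK318.1-IEC.

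Of the 8 transcription factor genes measured in the Peyer's patch, 5 had a ratio above 0, against 42.5% of all measured genes. Gata3, needed by developing and type 2 helper T cells, had 81.8 in GF-PP and 113 in NK318.1-PP, a ratio of 0.47, and lay under the floor in both IEC arrays, at 6.73 and 5.57. Bcl11b and Lef1, which hold T cell identity and naive state, had 0.30 each, and Satb1 had 0.20. Foxp3, the factor of regulatory T cells, had 34.6 and 26.3 in the Peyer's patch, a ratio of −0.39, close to the floor, with 12.9 and 15.6 in the IECs. Ikzf2, which encodes Helios and is also high in regulatory T cells, had −0.07, with 0.29 from another probe set. Maf had 611 and 607 in the Peyer's patch, where its 6 probe sets ran from −0.35 to 0.14.

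The cytokine and receptor genes of the list had few clear values outside Il7r. Il7r had 1435 in GF-PP and 1756 in NK318.1-PP, a ratio of 0.29, with 0.56 from its other probe set. Il2rb, the β chain shared by the IL-2 and IL-15 receptors, had 146.5 and 152 in the Peyer's patch, a ratio of 0.06. In the IECs it had 18.5 in GF and 9.09, under the floor, in colonized mice. Il21, the cytokine of follicular helper T cells, had 38.9 and 28.5 in the Peyer's patch, a ratio of −0.45, while both IEC arrays were under the floor at 10.5 and 7.56. Ctla4, Il21 and Foxp3 were the lowest of the members there, and Il21 and Foxp3 lay within 3 times the floor on both arrays.

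**Figure D3:**
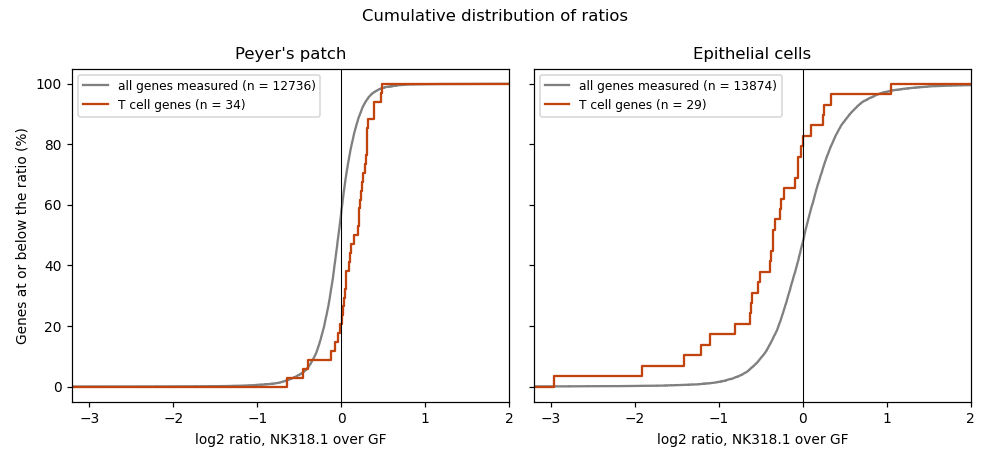
Cumulative share of genes at or below each log2 ratio of colonized over GF, for the measured T cell genes and for all measured genes. Over most of its range the T cell curve lies to the right of the other in the Peyer's patch (median 0.17 against −0.03) and to the left in the IECs (−0.35 against 0.02).

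In the IECs, 5 of 29 measured T cell genes were at least 2-fold lower in the colonized array and 1 was at least 2-fold higher, against 1.54% and 2.63% of 13874 genes. Below 0 lay 23 of the 29 and above it 6, against 47.6% and 52.4% of all measured genes, and the median log2 ratio was −0.35 against 0.02. For 10 of the 29 the ratio is a bound. Over the other 19, with both values above the floor, 15 lay below 0 and the median was −0.38. Probe sets of 1 gene disagreed more here than in the Peyer's patch, by a median of 0.27. This covers 5534 genes with at least 2 probe sets above the floor on both IEC arrays. For the 6 T cell genes among these that median was 0.46, more than the size of the T cell median ratio.

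Gimap4, a GTPase of the GIMAP family that acts in lymphocyte survival, stood furthest apart, with 3817 in GF-PP, 3873 in NK318.1-PP, 196 in GF-IEC and 25.1 in NK318.1-IEC. The Peyer's patch pair differed by 0.02 and the epithelial pair by −2.96 on the log2 scale, and its other probe set gave −0.06 and −1.40. The brighter probe set is of a design that can match transcripts of related genes. Gimap6 had 1327, 1297, 37.1 and 16.1, with ratios of −0.03 and −1.21, and the colonized epithelial value sat just above the floor. With probe sets averaged, its epithelial ratio was −0.92 or lower, a bound with the colonized side under the floor. Of the 6 GIMAP genes outside the list, Gimap7 (at least 3.74-fold) and Gimap8 (−1.51 on the log2 scale) were also at least 2-fold lower in the IECs. Over all measured genes that share was 1.54%. Gimap1 and Gimap5 had 0.28 and 0.38 in the IECs, and all 6 had Peyer's patch ratios between 0.01 and 0.18.

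Maf had 1209 in GF-IEC and 453 in NK318.1-IEC, a ratio of −1.41. All 6 of its probe sets lay below 0 there, from −1.41 to −0.30, and their average gave −0.88. Bcl11b had 927, 1144, 324 and 212 on the 4 arrays by its brightest probe set, an epithelial ratio of −0.62, and 3 of its probe sets gave −0.62 to −0.39, whereas the fourth gave 0.59 with 178 and 268. Ikzf2 had −0.60 and, by another probe set, −1.26 or lower. Cd6 and Il7r had −0.81 and −0.63, with colonized intensities of 22.1 and 17.8 that lay near the floor.

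Lef1 was the member with a clearly higher signal in the colonized IECs. It had 527 in GF-PP, 649.8 in NK318.1-PP, 24.97 in GF-IEC and 51.8 in NK318.1-IEC, so its values were higher in the colonized array of both tissues, with ratios of 0.30 and 1.05. Its other probe set was under the floor in both IEC arrays. The epithelial ratio was 0.56 or more with probe sets averaged and 0.48 or more with the floor at the 60th percentile. Both are bounds, with the GF side under the floor. LEF1 also transmits Wnt signals outside the T lineage. Prkcq, Cd3e and Cd28 had epithelial ratios of 0.34, 0.24 and 0.10, while Cd40lg (0.26 or more) and Foxp3 (0.00 or more) were bounds against the floor. Cd28 had 15.6 in GF-IEC and 16.7 in NK318.1-IEC, just above the floor, and its other probe set was under the floor on both.

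The epithelial T cell values lay beside lower signals of Ptprc and of CD8 and cytotoxic lymphocyte genes. Several other lymphocyte lists had medians nearer 0 in the IECs. There, 5 of 6 measured follicular helper genes and 5 of 9 naive T cell genes lay above 0, against 52.4% of all measured genes. Their medians were 0.24 and 0.06. Innate lymphoid and NK cell genes had 3 of 6 above 0 and regulatory T cell genes 3 of 9, with medians of −0.19 and −0.06. Ptprc, which encodes CD45 of all leukocytes, had 271 in GF-IEC and 23.1 in NK318.1-IEC, a log2 ratio of −3.55, and 5152 and 5235 in the Peyer's patch. Of 19 measured CD8 and cytotoxic lymphocyte genes, 14 were at least 2-fold lower in the colonized IECs, against 1.54% of all measured genes. Their median was −2.05. In the Peyer's patch 1 of 21 was at least 2-fold lower, against 0.573% of all measured genes, with a median of −0.09. Gzmb and Gzma, granzymes of killer lymphocytes, had ratios of −4.62 and −4.41 in the IECs. Their intensities in GF-IEC, 689 and 2734, were above those in GF-PP, 153 and 347, unlike those of nearly all T cell members. Most of their list was lower in GF-IEC, 16 of 21 genes, against 48.1% of all measured genes. The median log2 of GF-IEC over GF-PP was −1.22. At least 2-fold lower there were 11 and at least 2-fold higher 2, against 18.5% and 16.0% of all measured genes. B cell markers had 0 of 12 at least 2-fold lower and 1 higher (Spib, 2.03), and macrophage markers 1 of 11 lower (Lyz2, −2.09). Epithelial markers had 0 of 14 either way, with a median of −0.15. Over all genes measured in the IECs, 1.54% were at least 2-fold lower and 2.63% higher. The summed intensity of the CD8 and cytotoxic list was 6561 in GF-IEC and 731 in NK318.1-IEC. The sums of the epithelial list were 54200 and 45312. Their part in the T cell ratios was not tested.

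Other genes of receptor signaling were listed apart from the members. With the Peyer's patch arrays 22 of 31 measured had a ratio above 0, against 42.5% of all measured genes. Their median was 0.05, and 0 differed 2-fold. Cd69, an early activation marker, was lowest with 440.5 in GF-PP and 274 in NK318.1-PP, a ratio of −0.69. In the IECs 4 of 29 were at least 2-fold lower and 0 higher, against 1.54% and 2.63% of all measured genes. Their median there was −0.36. The 4 lower genes were Cd69 (at least 3.12-fold), the phosphatase Ptpn22 (−1.20), the adaptor Sla (−1.19) and Wipf1 (−1.11), which acts on the actin cytoskeleton.

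**Figure D4:**
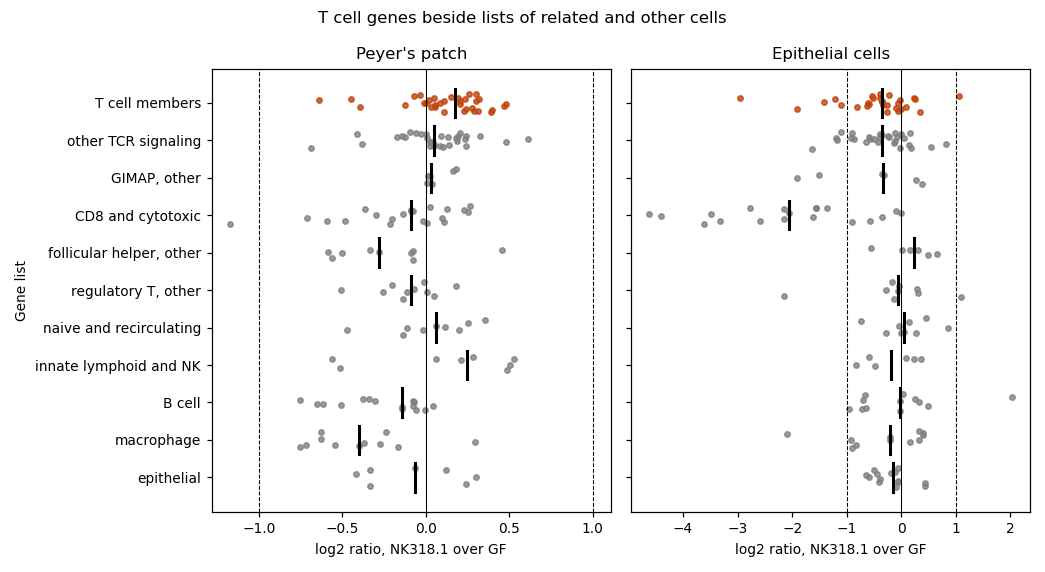
Log2 ratio of colonized over GF for each measured gene of the T cell list and of 10 other lists, in the Peyer's patch and the IECs (points, genes with small vertical jitter; black bars, medians; dashed lines, 2-fold). Peyer's patch medians are shown at left, where the T cell median is 0.17 and that of macrophages −0.40, and IECs at right, where the CD8 and cytotoxic list lies lowest with a median of −2.05.

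Across both tissues, 19 T cell genes were above the floor on all 4 arrays. Of these, 12 were higher in the colonized Peyer's patch and lower in the colonized IECs, 4 were higher in both, 3 were lower in both, and 0 were lower in the Peyer's patch and higher in the IECs. As shares of the 19 these are 63.2%, 21.1%, 15.8% and 0%, and over all 11427 genes above the floor on every array they were 19.7%, 22.5%, 26.8% and 30.7%. B cell and macrophage markers lay on the other side of 0 from the T cell genes in the Peyer's patch. Of 15 measured B cell markers 14 had a ratio below 0 there, with a median of −0.14, and of 11 macrophage markers 10 did, with a median of −0.40. Over all measured genes that share was 57.2%. The part of other cells' share in these ratios was not tested.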

How the data were processed

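The deposited values were a linear intensity per probe set on 4 Affymetrix 3′ arrays. Per the labels the authors made them with MAS5, with a version and scaling target not given in the sources used here. Methods of the study also name limma and a 2-fold limit, and with 1 array per group only the fold limit could be applied. No scaling was added to the deposited intensity. Beside 45037 probe sets, 64 controls were left out. The annotation gave 34945 probe sets 1 gene symbol, 932 several and 9160 none, and only the first were used. Where a gene had several, the brightest by mean log2 intensity stood for it. The floor of 15.5 is the 40th percentile of each array, taken at the median array. Ratios are log2 of colonized over GF.

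The members and lists were chosen with earlier results of these data known. Array values are given for members 2-fold apart, the 4 highest and 4 lowest ratios of a tissue, members with probe sets more than 0.5 from 0 on opposite sides, and the first member of a role group (not Lck and Tcf7). Other array values, such as those of Cd4, Lat and Sh2d1a, were added after they were seen. Genes from other lists are those 2-fold apart, up to 4 a list, and Ptprc. Cd3g, the GIMAP genes with ratios under 2-fold, Xist, Gkn2, Spib and Cd69 in the Peyer's patch, and the genes in the other observations, were chosen after their values were seen. The procedure was tested on simulated data. Alternatives tried were quantile normalization, median centring, no floor or one at the 25th or the 60th percentile, averaged probe sets, leaving out less specific probe sets, and limits of 1.5-fold and 4-fold. The number of arrays limits the precision. Python 3.11.15, numpy 2.4.6, pandas 2.3.3 and matplotlib 3.10.9 were used.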

Additional observations from a re-analysis of the deposited data

Results flagged for a closer look

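Median log2 ratios of the T cell genes lay on opposite sides of 0, at 0.17 for the Peyer's patch pair of arrays and −0.35 for the IEC pair. Genes with both ratios at least 0.2 from 0, on opposite sides, and all 4 values above the floor were Cd3d (0.28 and −1.92), Cd4 (0.21 and −0.22), Lat (0.31 and −0.35), Thy1 (0.39 and −0.51), Bcl11b (0.30 and −0.62), Il7r (0.29 and −0.63) and Themis (0.32 and −0.27). These are 7 of 19 T cell genes with all 4 values above the floor, 36.8%, all higher in the Peyer's patch and lower in the IECs. Over all 11427 such genes, 3.12% met that in this direction and 9.92% in either. With probe sets averaged, the epithelial ratio of Cd4 was 0.09, above 0. With the floor at the 60th percentile, those of Lat and Thy1 were −0.01 and −0.08 or lower, as bounds against that floor. Each rests on 1 array per group, and whether the tissues differ was not tested.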

How the results depend on the processing

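No paired analysis was possible because there was only 1 array in a group, so none could be left out either. Of 59 counts and medians of the members under an alternative, 49 kept to the reported value, within 1.5 times for counts and 0.1 for medians. The epithelial count of genes at least 2-fold lower, 5 as reported, was 3 with the floor at the 60th percentile, 8 without a floor, 3 with averaged probe sets, 9 at 1.5-fold and 1 at 4-fold. The 1 gene at least 2-fold higher there, Lef1, was lost with the floor at the 60th percentile, with averaged probe sets and at 4-fold, where the count was 0. The epithelial median was −0.15 with the floor at the 60th percentile, which left 14 genes measured. For the Peyer's patch 1 gene, Ctla4, was lower at 1.5-fold, and the median ran from 0.17 to 0.23 over the alternatives. Of 411 gene ratios under an alternative, 402 stayed on their side of the 2-fold limit, 5 passed it (Trat1, Il2rb and Skap1 in the IECs with a lower floor or none) and 4 no longer did (Lef1, Gimap6 and Maf in the IECs). The Lef1 and Gimap6 values among these 4 were bounds against the floor.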

Other observations

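Follicular helper T cell genes outside the members had, in the Peyer's patch, a ratio below 0 for 8 of 9, against 57.2% of all measured genes. Their median was −0.28. Slamf6 (170 in GF-PP and 113 in NK318.1-PP), Tnfsf8 (74.7 and 50.7) and Cd200 (378 and 267) had −0.58, −0.56 and −0.50. Bcl6, the factor that defines these cells and is also high in germinal center B cells, had 525 and 721, a ratio of 0.46. Cxcr5 and Pou2af1 of this list are also B cell genes. Regulatory T cell genes outside the members had 7 of 10 below 0, not far from the 57.2% of all measured genes. Their median was −0.09, against −0.03 for all measured genes, and Nrp1 was lowest at −0.50. Il10 and Ccr4 lay under the floor on all 4 arrays.

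Naive T cell and recirculation genes had 5 of 9 above 0 in the Peyer's patch, against 42.5% of all measured genes, with a median of 0.06. Ccr7, the receptor that leads T cells into lymphoid tissue, had 858 and 619 there, a ratio of −0.47. Among innate lymphoid and NK cell genes 6 of 8 lay above 0, with Eomes at 0.53 (160.0 and 231), Klrg1 at 0.50 and Id2 at −0.56.

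T cell receptor chain genes were found by their symbols after the data were seen, and their probe sets can share sequence between segments, so a symbol may not name the segment measured. Peyer's patch ratios lay above 0 for 7 of 8 measured, against 42.5% of all measured genes, with a median of 0.27. Only 1 was at least 2-fold higher, against 0.149% of all measured genes, Trav6-3 with 20.5 in GF-PP and 46.7 in NK318.1-PP (1.19). In the IECs 4 of 5 measured were at least 2-fold lower, against 1.54% of all measured genes. Trgv4, a γ chain segment, had 221 in GF-IEC and 17.7 in NK318.1-IEC, a ratio of −3.64, against 57.2 and 70.5 in the Peyer's patch. Trbv1, a β chain segment, had −2.18 in the IECs and 0.25 in the Peyer's patch.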
